A study of Mus musculus with 6 samples.

Results

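The genes described here encode 10 proteins of infarct matrix that are mostly matricellular: Postn, Tnc, Thbs1, Thbs2, Sparc, Cthrc1, Ccn1, Ccn2, Ccn5 and Fn1. They were taken by symbol, were each present once in the table, and are 10 of its 32285 genes. Matricellular proteins are secreted into the extracellular matrix, where they signal to cells through integrins, syndecans and other receptors, bind growth factors and organise collagen, rather than only carrying load. Most are scarce in the healthy adult heart and are made again after injury, when resident fibroblasts turn into matrix-producing cells and lay down a scar. Fibronectin (Fn1) is a structural adhesion protein that forms the provisional matrix on which these cells move.

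The study used single-cell RNA sequencing of non-cardiomyocytes from the hearts of mice with and without Trpm4, a calcium-activated cation channel. Wild-type (WT) mice were C57BL/6JRj and knockout (KO) mice were B6.Cg-Trpm4tm1.2-PG, and the labels give male animals aged 8-12 weeks in every group. Each genotype was sampled 24 h after a sham operation, 24 h after the LAD, a main coronary artery of the left ventricle, was tied off to cause an infarct, and 72 h after that ligation. Dissociated ventricular cells were sorted alive by dye, the cells of 4 hearts were pooled, and 1 library was made for each of the 6 groups. There is no sham group at 72 h and no replicate of any group, so no test across animals was possible, and the intervals given below are 95% intervals that cover counting error only. The labels do not state which part of the gene is deleted, and Trpm4 itself was low in all libraries, at 8.79 CPM (UMIs per 1000000 UMIs) in WT and 6.2 in KO sham hearts, 5.52 and 3.46 at 24 h, and 4.29 and 2.57 at 72 h. How these 3′ counts relate to the deleted part is not known, so they do not check the genotype labels.

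After filtering, 32030 cells remained, between 3361 and 6559 in 5 libraries and 6821 in the KO 72 h library, in which the median cell held 1351 UMIs (unique transcript counts) against 3075 to 8008 elsewhere. Libraries shared between 3 and 14 cell barcodes per pair. Of 37 clusters, 5 clusters with 1624 cells were left unnamed, and all others were named from marker genes. Fibroblasts numbered 373 in WT sham, 462 in KO sham, 197 in WT 24 h, 187 in KO 24 h, 143 in WT 72 h and 1263 in KO 72 h. All 13 fibroblast markers, such as Col1a1, Dcn and Pdgfra, were detected in the fibroblasts of every library. The level of a gene in a cell class is its UMIs summed over the cells of that class in a library and divided by all UMIs of those cells, as CPM, so a class in which more cells make a gene and a class whose cells each make more of it cannot be told apart by CPM alone. A gene was called higher or lower between 2 libraries when the ratio of levels was at least 2-fold, its interval left out 1, and the pair of libraries held at least 50 UMIs of it.

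The KO 72 h library stood apart in the fibroblasts. Their median depth was 1088 UMIs against 8790 to 10775 in the other libraries, and 233 of the 1263 cells had at least 2500 UMIs. The summed level of 21 monocyte/macrophage markers in fibroblasts was 128 CPM in WT sham, 570.5 in KO sham, 279 in WT 24 h, 453 in KO 24 h and 596 in WT 72 h, and 9663 in KO 72 h. All 21 markers had a UMI there, and the sum came to 37.2% of the level in the library's own monocytes and macrophages, against 0.47% to 2.14% in the other libraries. In 534 of the 1263 KO 72 h fibroblasts (42.3%) these markers made up at least 1% of UMIs, against 0 to 2 cells in each other library. The KO 72 h fibroblasts of at least 2500 UMIs held 9749 CPM of these markers. In all KO 72 h fibroblasts the 13 fibroblast markers summed to 17080 CPM, against 28920 in WT 72 h and 23170 to 43070 in the other libraries. Neutrophil markers summed to 2654 CPM there, against 250 to 1558 in the other libraries, and dendritic markers to 2178 against 70.3 to 289. The part of neutrophil and dendritic RNA in the KO 72 h values was not tested separately. Results that involve the KO 72 h fibroblasts are therefore given as counted, with the deep cells alone, with the 729 fibroblasts under 1% marker UMIs, and with the library's monocyte/macrophage profile taken out in proportion to the marker level. The last 2 of these were chosen after the data were seen.

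**Figure D1:**
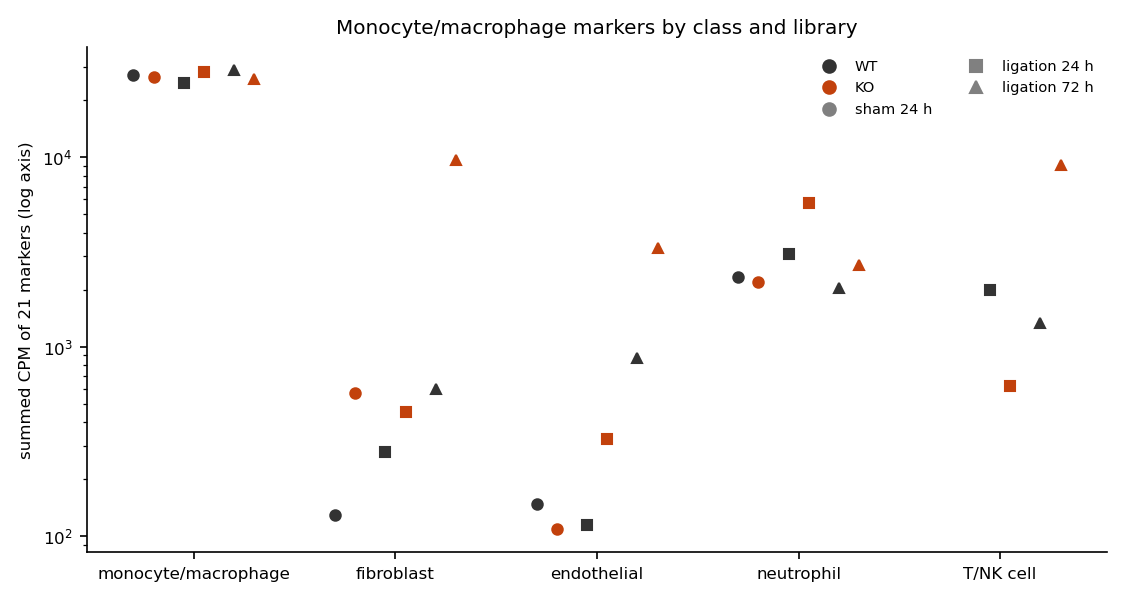
Summed level in CPM (log axis) of 21 monocyte/macrophage marker genes in 5 cell classes of each library. In fibroblasts the KO 72 h library stands at 9663 CPM and the other 5 libraries lie between 128 and 596 CPM.

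RefSeq promoter sequences (GRCm38.p6) were at hand for Postn, Tnc, Thbs2, Sparc and Ccn1, and not for Cthrc1, Thbs1, Ccn2, Ccn5 and Fn1. The 250 bases upstream of the start of 3 genes are shown as examples of calls in different comparisons or cells. Ccn1 was called higher at 24 h against sham in endothelial cells of both genotypes, and Tnc in fibroblasts of both. Ccn1 also lay above sham at 24 h in fibroblasts, where it was called in KO alone, and was called in WT smooth muscle. Postn was called higher in fibroblasts of both genotypes at 72 h against 24 h, and there is no sham group at 72 h. Capitals mark the letters TATAAA, those of the core promoter TATA box, wherever in the window they lie. In Ccn1 they also mark CATTCC, the reverse strand of GGAATG, which TEAD factors of the Hippo pathway bind.
Ccn1, chr3:145649986-145650235, minus strand: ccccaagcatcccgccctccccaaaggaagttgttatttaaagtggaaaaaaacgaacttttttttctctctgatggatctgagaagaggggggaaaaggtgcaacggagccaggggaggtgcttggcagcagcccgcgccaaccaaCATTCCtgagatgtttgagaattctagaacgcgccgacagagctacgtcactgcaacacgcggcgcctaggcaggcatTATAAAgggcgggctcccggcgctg
Postn, chr3:54360857-54361106, plus strand: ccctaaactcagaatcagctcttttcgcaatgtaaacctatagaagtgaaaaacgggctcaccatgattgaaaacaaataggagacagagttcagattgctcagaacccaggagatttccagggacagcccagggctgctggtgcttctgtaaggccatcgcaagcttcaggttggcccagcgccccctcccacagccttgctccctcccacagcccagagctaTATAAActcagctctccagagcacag
Tnc, chr4:64047016-64047265, minus strand: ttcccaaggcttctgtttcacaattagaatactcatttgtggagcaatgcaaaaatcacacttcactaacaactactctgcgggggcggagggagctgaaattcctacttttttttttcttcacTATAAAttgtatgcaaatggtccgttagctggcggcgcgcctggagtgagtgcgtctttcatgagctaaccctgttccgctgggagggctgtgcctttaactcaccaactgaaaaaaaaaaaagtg
In the Ccn1 window TATAAA begins 25 bases and CATTCC 103 bases before the start, in Postn TATAAA begins 26 bases before it, and in Tnc 126 bases before it. The Tnc match lies farther from its start than those of Ccn1 and Postn, so its capitals do not label it a TATA box. Both strands were searched in all 32851 RefSeq promoter windows of this length, with no motif overlapping another in the 3 sequences shown. TATAAA was in 5 of the 7 windows of the member genes (Tnc and Postn have 2 starts each, and the 2 Tnc windows overlap and hold the same match) and in 12.4% of all windows, and GGAATG was in 1 of 7 and in 12.6%. The AP-1 site TGANTCA (6.75% of all windows) and the SMAD site GTCTAGAC (0.167%) were in none of the 7. Such matches are letters only and say nothing of binding.

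The genes lie on separate chromosomes but for 2 pairs (GRCm38, GENCODE M21). Postn (chr3:54361109-54391037, plus strand) and Ccn1 (chr3:145646976-145649981, minus) share chromosome 3, and Thbs1 (chr2:118111876-118127133, plus) and Ccn5 (chr2:163820861-163833146, plus) chromosome 2. The others are Tnc (chr4:63959785-64047015, minus), Thbs2 (chr17:14665500-14694235, minus), Sparc (chr11:55394500-55423183, minus), Cthrc1 (chr15:39076932-39087121, plus), Ccn2 (chr10:24595442-24598683, plus) and Fn1 (chr1:71585520-71653200, minus).

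The cell classes that held a gene's UMIs divided the members into 3 sets. Fibroblasts held 88.8% to 94.4% of all Tnc UMIs of a library, 70.8% to 98.7% of Cthrc1, 89.3% to 99% of Ccn5, 78.7% to 96.1% of Thbs2, 64.6% to 88.2% of Postn and 53.8% to 85.9% of Ccn2. Monocytes and macrophages held most UMIs of Fn1 (67.9% to 88.7%) and Thbs1 (63.8% to 84.6%). Sparc and Ccn1 UMIs lay mainly in endothelial cells in the sham and 24 h libraries, and mainly in fibroblasts at 72 h. For Sparc the endothelial share was 58.5% in WT sham, 66.1% in KO sham, 57.6% in WT 24 h and 48.3% in KO 24 h, and the fibroblast share was 58.3% in WT and 53.8% in KO hearts at 72 h. These shares follow the number of cells sorted from each class as well as the level per class.

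**Figure D2:**
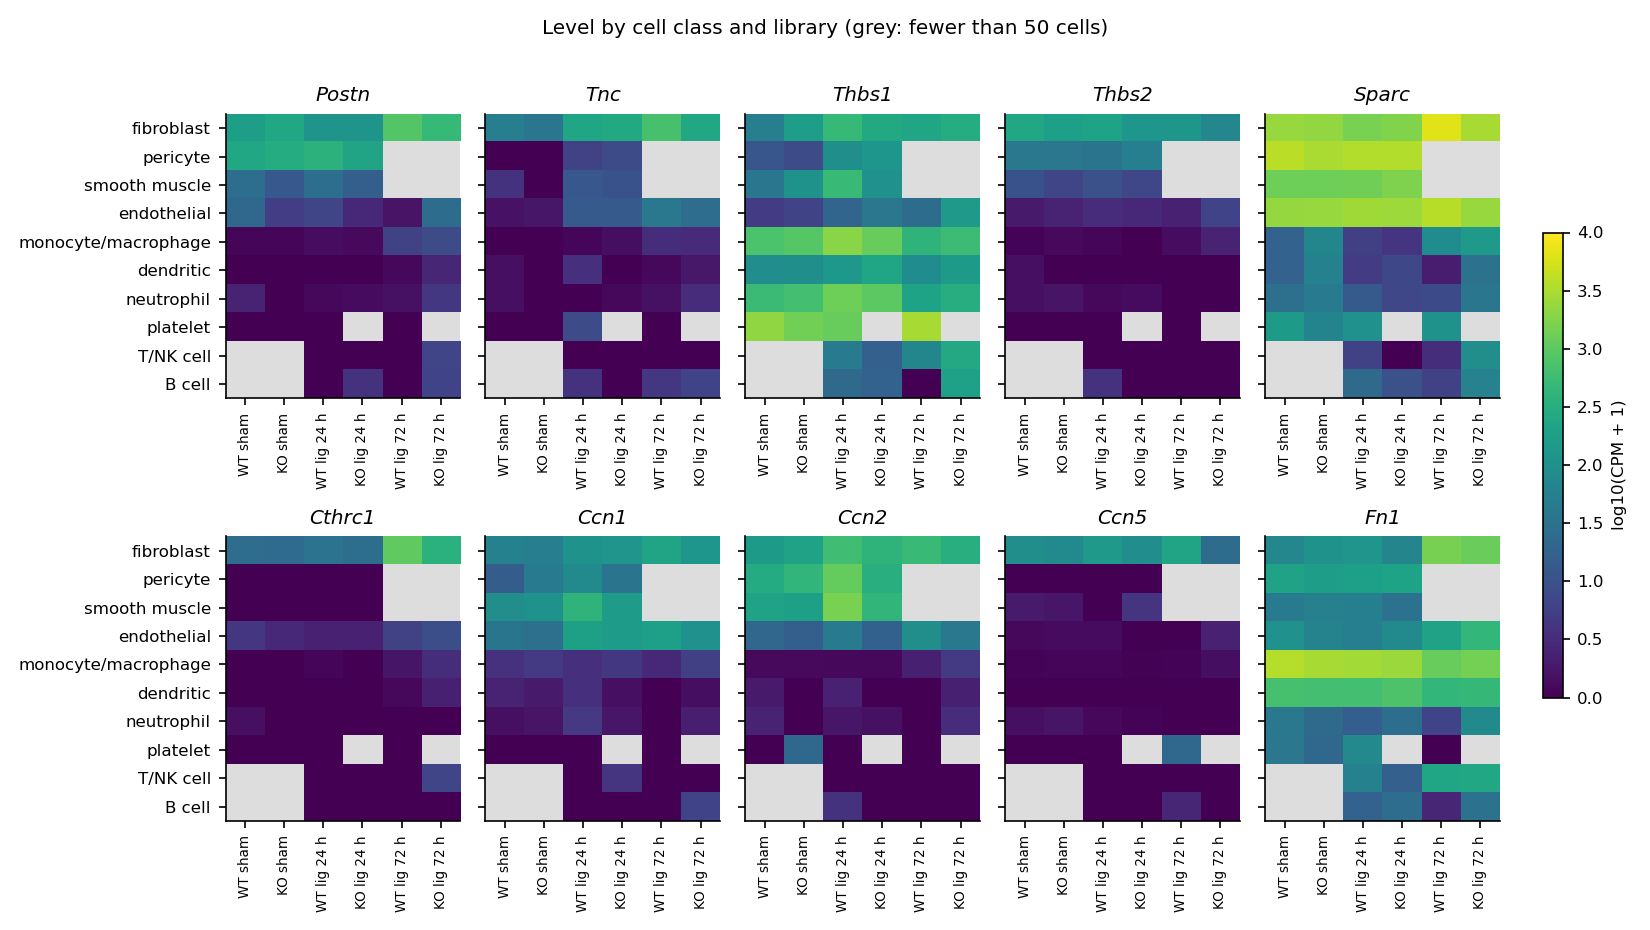
Level of each of the 10 genes as log10(CPM + 1) in 10 cell classes (vertical) of the 6 libraries (horizontal), with grey where a class had fewer than 50 cells. Tnc, Cthrc1, Ccn5 and Thbs2 stand out in fibroblasts, Fn1 in monocytes and macrophages, and Sparc in fibroblasts, endothelial cells, pericytes and smooth muscle.

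Among the members that form or organise fibres, Cthrc1 and Fn1 were low in fibroblasts until 72 h after ligation. Cthrc1, a secreted glycoprotein that marks activated fibroblasts, stood at 25.8 CPM in WT sham, 24.45 in KO sham, 32.15 in WT 24 h, 27.2 in KO 24 h, 1062 in WT 72 h and 354.8 in KO 72 h. The intervals of the 4 earlier libraries overlapped, and both 72 h libraries lay far above them. From 24 h to 72 h Cthrc1 was 33.0-fold higher (26.5 to 41.6) in WT and 13.1-fold higher (10.2 to 17.0) in KO fibroblasts. In KO 24 h a single cell held 33 of the 67 UMIs, and in WT 24 h the highest cell held 29 UMIs. Without the highest cell of each library the ratio was 46.45 (35.4 to 62.2) in WT and 24.3 (17.3 to 35.3) in KO. Fn1 was likewise low in these cells until 72 h, with 69.0 CPM in WT sham, 114 in KO sham, 121.5 in WT 24 h, 65.7 in KO 24 h, 1527 in WT 72 h and 1220 in KO 72 h. It was 12.6-fold higher (11.2 to 14.1) at 72 h than at 24 h in WT and 18.6-fold higher (15.9 to 21.9) in KO fibroblasts. Monocytes and macrophages also carry Fn1, and their markers were raised in the KO 72 h fibroblasts. With their profile taken out, the KO to WT ratio of Fn1 at 72 h was 0.706, against 0.799 as counted.

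Postn (periostin), which cross-links collagen and marks matrix-producing fibroblasts after injury, was at 172 CPM in WT sham, 247 in KO sham, 117 in WT 24 h, 118 in KO 24 h, 857 in WT 72 h and 475 in KO 72 h. The 24 h libraries were the lowest and, as counted, did not differ beyond their intervals. The sham libraries were higher, and the 72 h libraries were the highest. The ratio of 72 h to 24 h was 7.33 (6.5 to 8.29) in WT and 4.04 in KO fibroblasts. One KO 24 h cell held 78 of the 290 Postn UMIs. Without the highest cell of each library the KO to WT ratio at 24 h was 0.810 (0.674 to 0.973). The KO ratio of 72 h to 24 h was then 5.23. In the sham hearts Postn came mainly from a small cluster with Wif1, Comp and Tbx20 among its leading genes, where it stood at 864 CPM in 49 WT cells and 818 in 113 KO cells, against 28.7 and 29.9 CPM in the larger Clec3b and Dcn cluster. The 24 h libraries held 25 WT and 10 KO cells of the first cluster. In those 25 WT cells Postn was at 262 CPM. In the Clec3b and Dcn cluster at 24 h it was at 85.4 CPM in WT and 15.8 in KO. A cluster with Cxcl5, Ptx3 and Il6 among its leading genes held it at 119 CPM in WT and 163 in KO at 24 h. The part of the clusters in the class ratios of Postn was not tested. Postn was called lower at 24 h than in sham in KO fibroblasts (ratio 0.477) and had a ratio of 0.681 in WT.

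Sparc (osteonectin), a collagen-binding protein that assists fibril assembly, was present in fibroblasts of every library. Its level was 2409 CPM in WT sham, 2207 in KO sham, 1564 in WT 24 h, 1753 in KO 24 h, 6333 in WT 72 h and 2998 in KO 72 h. No neighbours in this order had overlapping intervals, and the WT 72 h level was the highest. The 72 h to 24 h ratio was 4.05 in WT, called higher, and 1.71 in KO, which did not reach 2-fold.

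Tnc (tenascin-C), an anti-adhesive glycoprotein of wound edges, was higher in fibroblasts as early as 24 h. It stood at 50.5 CPM in WT sham and 36.8 in KO sham, at 230.1 in WT 24 h and 265 in KO 24 h, and at 685 in WT 72 h and 252 in KO 72 h. Both genotypes were called higher at 24 h than in sham, by 4.55-fold (3.87 to 5.37) in WT and 7.21-fold (6.07 to 8.60) in KO. At 72 h the WT library had a further 2.98-fold higher level, whereas the KO ratio of 72 h to 24 h was 0.950. At 24 h Tnc came mainly from a cluster with Cxcl5, Ptx3 and Il6 among its leading genes, where it reached 499 CPM in 58 WT cells and 441 in 75 KO cells, against 5.23 and 11.3 CPM in the Clec3b and Dcn cluster. In KO sham hearts the Cxcl5 cluster already held Tnc at 236 CPM, in 30 of the 462 fibroblasts and 147 of the 167 UMIs. At 24 h this cluster took 75 of the 187 KO fibroblasts. In WT it took 14 of the 373 sham fibroblasts, too few for a level, and 58 of the 197 at 24 h. In both genotypes the cluster's share of cells thus moved with the class ratio. At 72 h Tnc came mainly from a Col1a1 and Lox cluster, at 804 CPM in 90 WT cells and 401 in 838 KO cells.

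**Figure D3:**
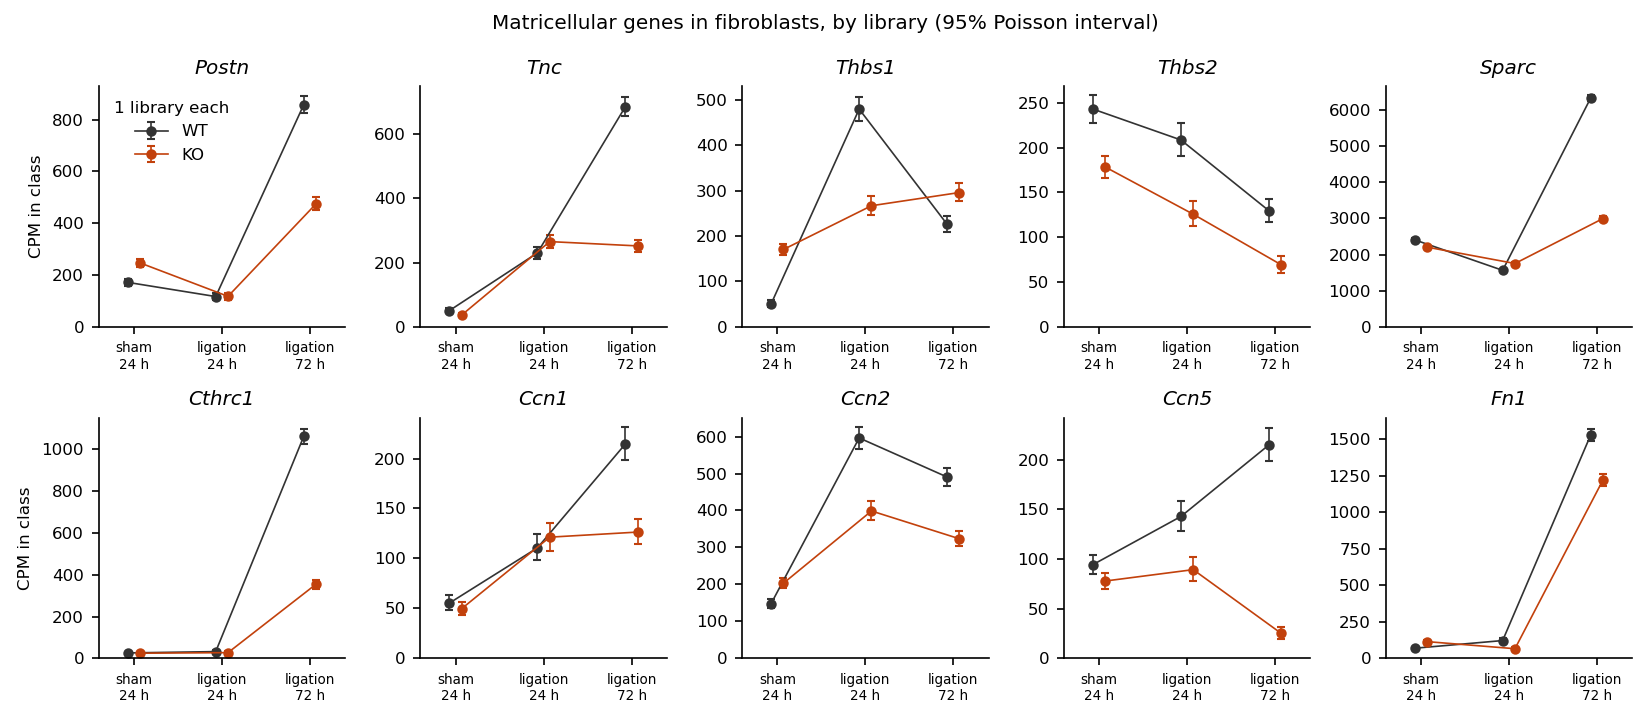
Level in fibroblasts, in CPM on linear axes from 0, of the 10 genes in the 6 libraries, as points with 95% Poisson intervals (counting error only) and lines that join the libraries of 1 genotype. Cthrc1, Fn1, Postn and Sparc are highest at 72 h, Tnc is above sham at 24 h and 72 h, and the KO 72 h point lies below the WT point for every gene but Thbs1.

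The thrombospondins bind TGF-beta, CD47 and CD36 and limit vessel growth. Thbs1 in fibroblasts was at 50.8 CPM in WT sham, 170.5 in KO sham, 479.9 in WT 24 h, 267 in KO 24 h, 226 in WT 72 h and 296 in KO 72 h. It was called higher at 24 h than in sham in WT, by 9.45-fold (8.13 to 11), and had a ratio of 1.57 in KO. The WT call held in 13 of 14 alternative settings and was lost, at a log2 ratio of 0.63, when the level in neutrophils was subtracted. From 24 h to 72 h it was called lower in WT (ratio 0.471) and not in KO, and the WT call held in 10 of 14 alternative settings. Thbs2 in fibroblasts was at 243 CPM in WT sham, 178 in KO sham, 209 in WT 24 h, 126 in KO 24 h, 129.6 in WT 72 h and 69.2 in KO 72 h, and was called in none of the 7 comparisons. Thbs2 was the member with its highest level in sham hearts, and the KO library was the lower of each pair.

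The CCN proteins are small secreted regulators: Ccn1 and Ccn2 are induced early by stretch, serum and Hippo signalling and bind integrins, and Ccn5, which lacks the C-terminal domain of the others, is known to oppose Ccn2 in fibrosis. Ccn2 (connective tissue growth factor) in fibroblasts was at 148 CPM in WT sham, 203 in KO sham, 596 in WT 24 h, 399 in KO 24 h, 490.5 in WT 72 h and 323 in KO 72 h. It was 4.02-fold higher (3.65 to 4.43) at 24 h than in sham in WT, and 1.96-fold higher in KO, just short of 2-fold. A single cell held 309 of the 1521 Ccn2 UMIs of the WT 24 h fibroblasts. Ccn1 in fibroblasts was at 55.3 CPM in WT sham, 49.8 in KO sham, 111 in WT 24 h, 121 in KO 24 h, 215 in WT 72 h and 126 in KO 72 h. Its 24 h to sham ratio was 2.44 in KO, which was called, and 1.998 in WT, which lay just under the threshold.

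Ccn5 in fibroblasts was at 94.25 CPM in WT sham, 77.8 in KO sham, 143 in WT 24 h, 89.2 in KO 24 h, 215 in WT 72 h and 25.1 in KO 72 h. The WT 72 h level was the highest of the 6 and the KO 72 h level the lowest. The intervals of KO sham, KO 24 h and WT sham overlapped with their neighbours. In KO fibroblasts Ccn5 was called lower at 72 h than at 24 h (ratio 0.281), and in WT it had a ratio above 1 that did not reach 2-fold. In the fibroblasts of both 24 h libraries Ccn5 lay in the Clec3b and Dcn cluster, at 271 CPM in WT and 178 in KO, against 8.59 and 11.1 CPM in the Cxcl5 and Ptx3 cluster in which Tnc was high.

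Counted over the set, 3 members were called higher in WT fibroblasts at 24 h against sham (Tnc, Thbs1 and Ccn2) and 0 lower, where 5.04% of all genes tested were called higher and 4.55% lower. In KO fibroblasts 2 were higher (Tnc and Ccn1; background 4.04%) and 1 lower (Postn; 9.76%). From 24 h to 72 h, 5 members were higher in WT (Postn, Tnc, Sparc, Cthrc1 and Fn1; 6.12%) and 1 lower (Thbs1; 15.9%), and 3 were higher in KO (Postn, Cthrc1 and Fn1; 10.2%) and 1 lower (Ccn5; 8.41%). The median log2 ratio of the 10 members was 0.71 at 24 h against sham and 1.27 at 72 h against 24 h in WT, beside -0.06 and -0.27 over all genes tested. In KO it was 0.18 and 0.10, beside -0.21 and -0.18. These are descriptions of chosen genes in single libraries, and whether the genotypes differed in the time course was not tested.

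In the sham hearts and at 24 h, KO and WT fibroblasts differed in few members. In sham hearts 1 member was called higher in KO, Thbs1 with a ratio of 3.36 (2.87 to 3.94), where 1.32% of all genes were called higher, and 0 lower (0.615%). A single KO cell held 151 of the 774 Thbs1 UMIs, and without the highest cell of each library the ratio was 3.29. The call was absent when cells scored as doublets were kept, and the ratio reversed when the level in neutrophils was subtracted. Fn1 had a ratio of 1.66 and Postn of 1.44 in the same pair, and the other 7 members were closer to 1 or below it. At 24 h after ligation 0 members were called in either direction, where 0.718% of genes were called higher and 2.66% lower. Thbs1 was at 0.556 of the WT level, Fn1 at 0.541, Thbs2 at 0.603, Ccn5 at 0.625 and Ccn2 at 0.669. Postn (1.01) and Tnc (1.15) were close to WT as counted, and at 0.810 and 1.22 without the highest cell of each library. Within clusters Postn was not close. It was lower in KO in the Clec3b and Dcn cluster (15.8 against 85.4 CPM) and higher in the Cxcl5 and Ptx3 cluster (163 against 119 CPM). With the monocyte/macrophage profile taken out, Fn1 was called lower, with a log2 ratio of -1.82.

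At 72 h after ligation, 4 members were called lower in KO than in WT fibroblasts, where 3.4% of all genes were called lower, and 0 were called higher (9.3%). Ccn5 was at 0.117 of the WT level (0.0907 to 0.149), from 75 UMIs in KO against 661 in WT cells. Cthrc1 was at 0.334, Tnc at 0.367 (0.338 to 0.400) and Sparc at 0.473. The other ratios were 0.534 for Thbs2, 0.554 for Postn, 0.589 for Ccn1, 0.659 for Ccn2, 0.799 for Fn1 and 1.31 for Thbs1. The median log2 ratio of the 10 members was -0.88, beside -0.08 over all genes tested. Among the KO fibroblasts of at least 2500 UMIs 5 members were lower, Postn (0.454) being added, with a background of 4.24%, and 0 higher (7.71%).

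The size of these differences depended on how monocyte/macrophage RNA in the KO cells was handled, whose marker sum was 9663 CPM against 596 in WT. Taking the profile out shrinks the KO total, which by construction raises the KO level of every gene scarce in macrophages. Postn went from 474.6 to 748.8 CPM and Ccn5 from 25.1 to 39.6. With that profile taken out the ratio was 0.181 for Ccn5, 0.519 for Cthrc1, 0.570 for Tnc, 0.723 for Sparc and 0.857 for Postn, and 1 member, Ccn5, was called lower. Among the fibroblasts under 1% marker UMIs the ratio was 0.176 for Ccn5, 0.484 for Cthrc1, 0.514 for Tnc, 0.680 for Sparc and 0.775 for Postn, and Ccn5 and Cthrc1 were called lower. When each cell was given the same weight by averaging the cells' own CPM, Ccn5 (0.209) and Thbs2 (0.399) were called lower. In that setting Cthrc1 (0.632), Sparc (0.659) and Tnc (0.730) lost their calls. Postn was at 0.900 and Ccn2 at 1.015, Thbs1 (2.80) was called higher, and Fn1 lay above WT at 1.52. The share of all genes called was not computed for the settings of this paragraph, so these counts have no background beside them. Ccn5 was called lower in 14 of 14 alternative settings, with log2 ratios between -3.46 and -2.26. Cthrc1 kept its call in 12 of 14, and Tnc and Sparc in 11 of 14, and the direction of all 3 was lower in 14 of 14.

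**Figure D4:**
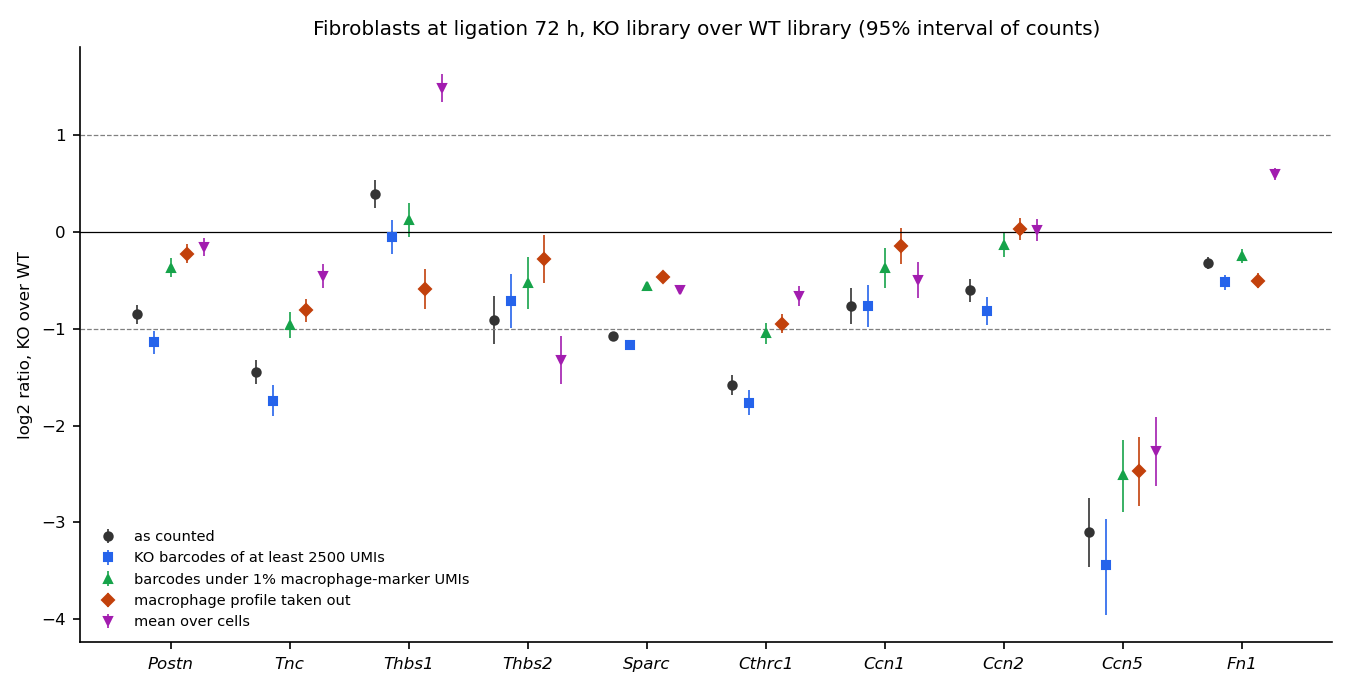
Log2 ratio of the KO to the WT level in fibroblasts at 72 h for the 10 genes under 5 settings (as counted, KO cells of at least 2500 UMIs, cells under 1% monocyte/macrophage marker UMIs, that profile taken out, and the mean over cells), with dashed lines at a 2-fold difference. Ccn5 lies between -3.44 and -2.26 in the 5 settings, and Fn1, Thbs1 and Ccn2 fall on both sides of 0.

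The makeup of the fibroblasts at 72 h also differed. The Col1a1 and Lox cluster held 90 of the 143 WT cells, with a median of 32442 UMIs, and 838 of the 1263 KO cells, with a median of 1031.5, and another cluster, with Dpep1, Tnxb and Lum among its leading genes, took 389 of its 418 cells from the KO 72 h library. In that second cluster 70.4% of the KO cells had at least 1% monocyte/macrophage marker UMIs, against 31.0% in the first. Within the Col1a1 and Lox cluster the KO and WT levels were 31.7 and 211 CPM for Ccn5, 595 and 1218 for Cthrc1, 401 and 804 for Tnc, 4402 and 6790 for Sparc, and 746 and 944 for Postn. The remaining members there were at 1439 and 1688 CPM for Fn1, 507 and 531 for Ccn2, 196 and 239 for Ccn1, 331 and 243 for Thbs1, and 60.5 and 115 for Thbs2. Within this cluster, as counted, the KO level lay below the WT level for every member but Thbs1, with overlapping intervals for Ccn2. The monocyte/macrophage profile was not taken out of these cluster levels.

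Detection per cell was compared after thinning each cell to 1000 UMIs, which left 136 WT and 705 KO fibroblasts at 72 h and left out 7 and 558 shallower ones. A UMI of Ccn5 was found in 10.3% of WT cells (Clopper-Pearson interval 5.74% to 16.7%) and 1.99% of KO cells (1.09% to 3.31%), against 32.9% and 4.43% unthinned. In neutrophils, a class that should lack it, it was found in 0 of 920 WT cells, which allows a share of up to 0.326%, and 0 of 399 KO cells, which allows up to 0.752%; their median depths were 2140 and 1974 UMIs against 10062 and 1088 in the fibroblasts. Postn was detected in 33.8% (25.9% to 42.4%) of WT and 30.8% (27.4% to 34.3%) of KO cells, and Tnc in 16.9% and 16.7%, so that for these genes the share with a UMI did not differ beyond its interval while the summed level did. Cthrc1 was found in 33.8% (25.9% to 42.4%) and 24.5% (21.4% to 27.9%), with overlapping intervals, and Sparc in 86.8% and 75.7%. Fn1 was found in 44.9% of WT and 66.2% of KO cells, the opposite order to its summed level, so no order was read from it. In neutrophils of the same libraries Fn1 was found in 0.217% and 5.26%, Sparc in 0.761% and 3.01%, and Thbs1, which neutrophils express, in 8.91% and 11.5%.

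Other genes of the same pathways were examined in the fibroblasts. Of the genes for collagen and its processing, 12 of 18 were called higher in WT at 72 h against 24 h and 1 lower. Over all genes tested 6.12% were higher and 15.9% lower. The median log2 ratio was 1.51, beside -0.27 over all genes. Col1a1, a chain of type I collagen, was 8.42-fold higher, the lysyl oxidase Loxl3 7.02-fold and Col1a2 6.87-fold. In KO fibroblasts 5 of 17 were higher (10.2% of all genes) and 1 lower (8.41%). Between the genotypes at 72 h, 11 of 17 were called lower in KO (3.4% of all genes) and 0 higher (9.3%). Col12a1 was at 0.362, the collagen lysyl hydroxylase Plod2 at 0.375 and Col1a2 at 0.410 of WT. The median log2 ratio was -1.10, beside -0.08 over all genes. Among the deep KO cells 12 of 17 were lower (4.24% of all genes). The marker sums of 9663 against 596 CPM stand beside these counts too, and their part in them was not tested for this list. Col1a1, Col1a2, Col3a1 and Pcolce of the list are also fibroblast markers that named the class. Col1a1, Col1a2, Col3a1, Col5a1, Col5a2, Col8a1 and Lox are among the leading genes of the cluster that held most 72 h fibroblasts. The list is therefore not independent of how the cells were grouped and named.

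Of the TGF-beta and Hippo target genes, 4 of 12 were higher (6.12% of all genes) and 1 lower (15.9%) in WT at 72 h against 24 h. Acta2 and Tagln, genes of the contractile apparatus that smooth muscle and activated fibroblasts express, were 177-fold (from 12.6 to 2216 CPM) and 73.0-fold higher, and Ankrd1, with 2 UMIs at 24 h, was at 30.5 CPM. The 8 smooth muscle markers, to which Acta2 and Tagln belong, summed to 49.0 CPM in the fibroblasts of WT 24 h, 3672 in WT 72 h and 1571 in KO 72 h, and the part of smooth muscle cells in these values was not tested. At 72 h Tagln was at 0.389 and Acta2 at 0.446 of the WT level in KO, both called lower (3.4% of all genes). Ankrd1 had a ratio of 1.45, and 0 of 12 were called higher (9.3%). Among other matricellular genes 2 of 12 were higher (6.12% of all genes) and 6 lower (15.9%) in WT at 72 h against 24 h. Ccn4, a CCN protein, was at 8.51-fold, Comp (thrombospondin-5) at 0.147 and Spock2 at 0.0377 from 3 UMIs. Between genotypes at 72 h, 2 of 10 were higher in KO (Tgfbi at 7.21, Comp at 2.79; 9.3% of all genes) and 1 lower (Thbs3 at 0.451; 3.4%).

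Receptors for these proteins moved in other ways. In WT fibroblasts 3 of 13 were lower at 72 h than at 24 h (15.9% of all genes) and 0 higher (6.12%). The lower ones were the toll-like receptor Tlr4 at 0.313, the scavenger receptor Lrp1 at 0.351 and the syndecan Sdc4 at 0.432. Between genotypes at 72 h, 6 of 16 were higher in KO (9.3% of all genes) and 1 lower (3.4%). The largest were Itgam, the alpha chain of a leukocyte integrin, at 34.5-fold, the scavenger receptor Stab1 at 25.6-fold and Cd36 at 18.2-fold, and macrophages express these genes. The monocyte/macrophage marker sum, which was 9663 CPM in KO and 596 in WT, moved with them, and its part in these ratios was not tested.

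Immediate early genes, which injury and tissue digestion both raise, differed between the same libraries, in the direction of Ccn1, Ccn2 and Thbs1 in some comparisons and against it in others. In fibroblasts 9 of 16 were higher in WT at 24 h against sham (median log2 ratio 1.15; 5.04% of all genes higher) and 2 of 15 in KO (0.18; 4.04%). At 72 h against 24 h 9 of 16 were lower in WT (-1.06; 15.9% of all genes lower), where Ccn1 had a ratio of 1.94. Between genotypes 8 of 16 were lower in KO than in WT at 24 h (-0.86; 2.66% of all genes lower). At 72 h 6 of 16 were higher in KO than in WT (0.62; 9.3% of all genes higher), where Ccn1 and Ccn2 had ratios of 0.589 and 0.659. In endothelial cells 8 of 16 were higher at 24 h in WT (3.58% of all genes) and 5 of 16 in KO (3.69%). In smooth muscle 7 of 12 were higher in WT (3.58%) and 1 of 12 in KO (1.31%). In pericytes 4 of 7 were higher in WT (3.57%) and 4 of 8 in KO (4.53%), where the KO ratio of Ccn2 was 0.745. The part of these genes' response in the values of Ccn1, Ccn2 and Thbs1 was not tested.

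Vessel cells were the other main source of the early CCN genes. In endothelial cells Ccn1 was at 34.9 CPM in WT sham, 28.7 in KO sham, 187 in WT 24 h, 153.5 in KO 24 h, 179 in WT 72 h and 105 in KO 72 h. Every library after ligation lay above both sham libraries, with a 24 h to sham ratio of 5.37 (4.66 to 6.2) in WT and 5.35 (4.6 to 6.22) in KO. In an Apln and Pgf cluster Ccn1 was at 105 CPM in WT sham, 165 in KO sham, 572 in WT 24 h and 520 in KO 24 h. That cluster held 64, 80, 135 and 123 cells in that order. In an Aqp1 and Timp4 cluster Ccn1 was at 23.5, 15.9, 63.5 and 23.8 CPM, and in a Sema3g and Stmn2 cluster at 38.6, 30.85, 104 and 26.5 CPM. The makeup of the class thus moves with its Ccn1 ratios, and its part was not tested. Endothelial Ccn2 was at 19.9 CPM in WT sham, 15 in KO sham, 45.5 in WT 24 h, 16.8 in KO 24 h, 94.8 in WT 72 h and 39.5 in KO 72 h. KO was called lower than WT at 24 h, at 0.369 (0.251 to 0.531), and at 72 h, at 0.416 (0.269 to 0.623), from 29 KO against 146 WT UMIs, and without the highest cell of each library the ratios were 0.403 and 0.377. With the mean over cells the 72 h ratio reversed, to a log2 value of 0.41, and most sham Ccn2 UMIs of the class (144 of 168 in WT, 143 in KO) came from 1 cluster with Npr3, Vwf and Plvap among its leading genes, so that the makeup of the class moves with this value. Members called in WT endothelial cells at 24 h against sham were 3 higher (Thbs1, Ccn1, Ccn2; background 3.58%) and 2 lower (Postn, Fn1; 2.44%), and in KO 2 higher (Thbs1, Ccn1; 3.69%) and 0 lower (1.33%). From 24 h to 72 h 3 were higher in WT (Tnc, Ccn2, Fn1; 3.5%) and 0 lower (7.4%), and 3 were higher in KO (Thbs1, Ccn2, Fn1; 3.58%) and 0 lower (4.91%). Between genotypes 1 was lower in sham hearts (Postn, with 52 KO against 178 WT UMIs; 1.1%) and 0 higher (0.408%), 1 was lower at 24 h (Ccn2; 1.07%) and 0 higher (1.26%), and at 72 h 1 was lower (Ccn2; 1.44%) and 2 higher (Thbs1, Fn1; 2.37%), where the monocyte/macrophage marker sum in endothelial cells was 3323 CPM in KO and 872 in WT. Among KO cells of at least 2500 UMIs the Fn1 ratio was 1.625 (1.341 to 1.962), which was not called.

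Smooth muscle cells and pericytes reached 50 cells in the sham and 24 h libraries alone. Ccn2 in smooth muscle was at 199 CPM in WT sham, 184 in KO sham, 1555 in WT 24 h and 429.9 in KO 24 h. The 24 h to sham ratio was 7.82 (6.70 to 9.16) in WT and 2.34 in KO, and KO was at 0.277 of WT at 24 h. One WT cell held 231 of the 693 UMIs, and without the highest cells the genotype ratio was 0.345. Ccn1 in the same cells was at 92.9, 109, 395 and 163.5 CPM in the same order of libraries, and its KO to WT ratio at 24 h was 0.414. Thbs1 there was at 36.2 CPM in WT sham, 111 in KO sham, 487 in WT 24 h and 103 in KO 24 h, so that it was 13.4-fold higher in WT at 24 h than in sham. At 24 h 3 members were called lower in KO smooth muscle (Thbs1, Ccn1, Ccn2), where 3.85% of genes were, and 0 higher (1.27%), with 51 WT and 57 KO cells. Neutrophil markers summed to 4808 CPM in the KO and 518 in the WT smooth muscle at 24 h, to 4690 and 1146 in pericytes and to 3132 and 448 in endothelial cells, and their part in the 24 h genotype ratios was not tested. Against sham 3 were higher at 24 h in WT (Thbs1, Ccn1, Ccn2; 3.58%) and 0 lower (2.84%), and 1 was higher in KO (Ccn2; 1.31%) and 0 lower (1.49%). In the sham hearts 1 was higher in KO (Thbs1; 0.558%), with a ratio of 1.92 once the highest cells were left out, and 0 lower (0.837%). In pericytes Ccn2 was at 292 CPM in WT sham, 430.5 in KO sham, 1137 in WT 24 h and 321 in KO 24 h. It was 3.89-fold higher at 24 h in WT, had a ratio of 0.745 in KO, and was at 0.282 of WT in KO at 24 h (1 member lower, background 1.58%), or 0.392 without the highest cells, 1 of which held 82 of 234 UMIs. Endothelial cells, smooth muscle and pericytes thus had in common with fibroblasts a KO Ccn2 level below WT at 24 h, with ratios of 0.369, 0.277, 0.282 and 0.669 in that order. Without the highest cell of each library these ratios were 0.403, 0.345, 0.392 and 0.745.

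Sparc, by contrast, was high in vessel cells of every library. In endothelial cells it was at 2320 CPM in WT sham, 2371 in KO sham, 2731 in WT 24 h, 2590 in KO 24 h, 3745 in WT 72 h and 2402 in KO 72 h, and it was called in none of the 7 comparisons. It was at 3807, 3051, 3463 and 3434 CPM in the pericytes and 1305, 1296, 1377 and 1711 CPM in the smooth muscle of the WT sham, KO sham, WT 24 h and KO 24 h libraries. Postn in pericytes was at 253, 301, 369 and 219 CPM in that order, and Fn1 at 203, 168, 179.7 and 207.5 CPM.

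**Figure D5:**
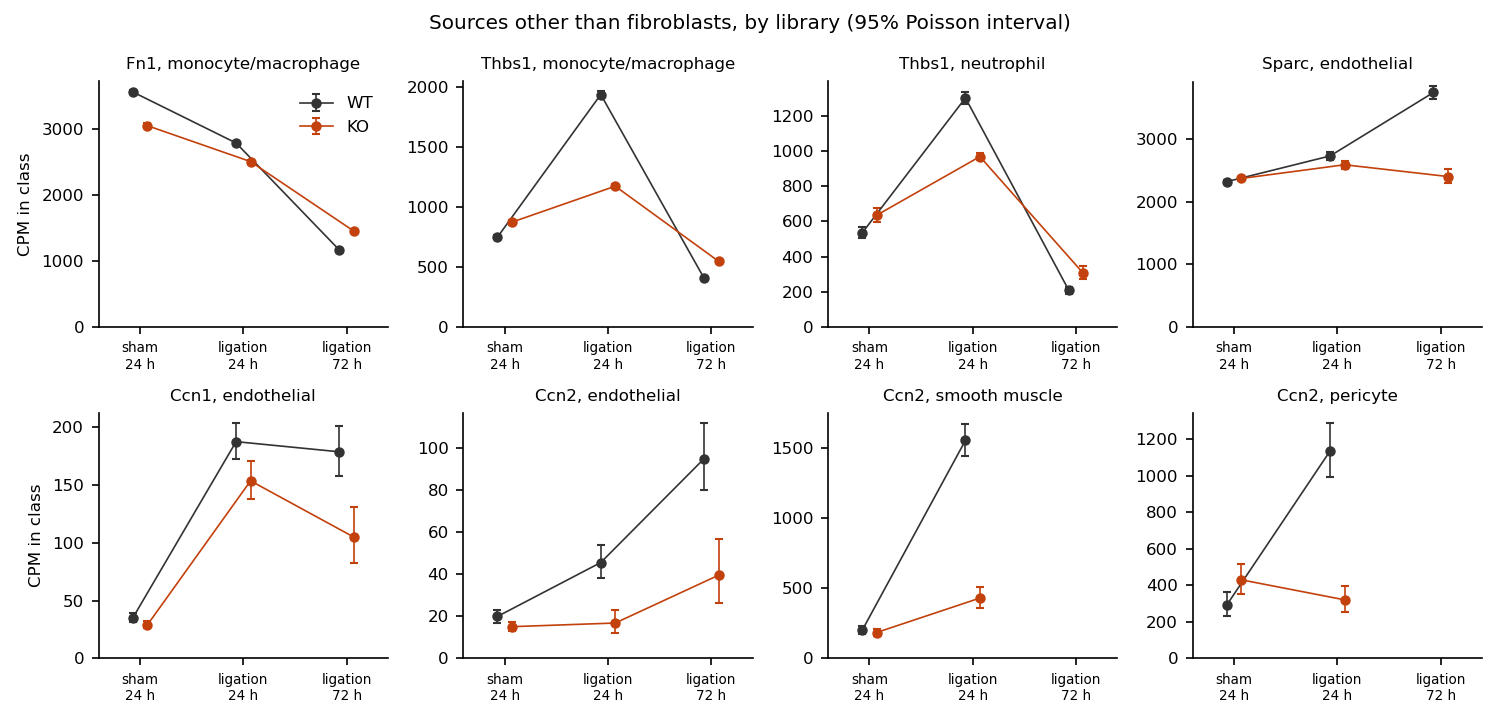
Level in CPM of members outside fibroblasts by library: Fn1 and Thbs1 in monocytes and macrophages, Thbs1 in neutrophils, Sparc, Ccn1 and Ccn2 in endothelial cells, and Ccn2 in smooth muscle and pericytes, with 95% Poisson intervals. Fn1 in monocytes and macrophages is lowest at 72 h, and Ccn2 in the 3 vessel classes is lower in KO than in WT at 24 h.

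In monocytes and macrophages Fn1 was at 3555 CPM in WT sham, 3045 in KO sham, 2782 in WT 24 h, 2501 in KO 24 h, 1161 in WT 72 h and 1448 in KO 72 h. This is the reverse of its course in fibroblasts, with a 72 h to 24 h ratio of 0.417, called lower, in WT and 0.579 in KO. The makeup of the class differed by time. In a cluster led by Ccl24, Arg1 and Vcan Fn1 was at 6215 CPM in WT sham, 3679 in WT 24 h and 7471 in WT 72 h, in 441, 376 and 200 cells, whereas clusters that appeared at 72 h had less, such as one led by Cxcl10 and Ccl8 with 445 CPM in WT and 874 in KO. Thbs1 in the class was at 747 CPM in WT sham, 872 in KO sham, 1936 in WT 24 h, 1172 in KO 24 h, 405 in WT 72 h and 546 in KO 72 h. It was 2.59-fold higher at 24 h than in sham in WT and had a ratio of 1.34 in KO, and it was called lower at 72 h against 24 h in both, at 0.209 and 0.466. Within clusters the 2 times lay closer: in the Ccl24 and Arg1 cluster the WT level of Thbs1 was 2594 CPM at 24 h and 2294 CPM at 72 h, the KO level 1531 and 1948, and in a cluster led by Plac8 and Lyz2 at 999 and 873.5 in WT and 919 and 991 in KO. In neutrophils, which also make Thbs1, the levels were 534, 635, 1303, 969, 208 and 305 CPM in the same order of libraries, and the 24 h libraries were again the highest.

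Sparc was scarce in monocytes and macrophages, at 17.2 CPM in WT sham, 68.0 in KO sham, 4.71 in WT 24 h, 3.08 in KO 24 h, 85.9 in WT 72 h and 147 in KO 72 h. At 72 h it lay largely in a cluster led by the cell cycle genes Top2a and Mki67. Levels there were 544 CPM in 187 WT cells and 807 in 260 KO cells. The Cxcl10 cluster held 2.38 CPM in WT and 60.6 in KO, and KO cells of a cluster led by Lgmn and Ly86 held 195.5. The cell cycle cluster had 0 monocyte/macrophage markers among its leading genes, although 8 passed a 2-fold detection limit. Without the highest cell of each library, with 440 WT and 174 KO UMIs, Sparc in the class was at 70.7 and 130 CPM. Whether the Sparc of that cluster was made by monocytes and macrophages was not tested. The summed level of 16 endothelial markers in this class moved with Sparc in the sham and 24 h libraries, at 245 CPM in WT sham, 1010 in KO sham, 122 in WT 24 h and 42.6 in KO 24 h, and was 296 in WT 72 h and 649.5 in KO 72 h, and the part of endothelial RNA in the Sparc values was not tested. Members called in this class at 24 h against sham were 1 higher (Thbs1; background 2.54%) and 1 lower (Sparc; 4.01%) in WT, and 0 higher (1.77%) and 1 lower (Sparc; 7.51%) in KO. At 72 h against 24 h there were 3 higher (Postn, Tnc, Sparc; background 12%) and 2 lower (Thbs1, Fn1; 6.9%) in WT, and 2 higher (Postn, Sparc; 9.77%) and 1 lower (Thbs1; 2.79%) in KO. Between genotypes 1 was higher in KO sham (Sparc; 2.11%) and 0 lower (0.373%), 0 were called at 24 h (0.55% higher and 1.4% lower over all genes), and at 72 h 2 were higher (Ccn1 and Ccn2, from 49 and 39 KO UMIs; 3.73%) and 0 lower (0.58%). Neither call held among KO cells of at least 2500 UMIs, where the ratio was 1.52 (0.887 to 2.53) for Ccn1 and 0.820 (0.348 to 1.73), below WT, for Ccn2. The levels of Postn and Tnc in this class were no more than 7.65 and 2.29 CPM at 72 h, against 857 and 685 CPM in the WT fibroblasts, 1 cell held 75 of the 150 Postn UMIs in WT and 1 cell 43 of the 80 in KO, and whether they were made by these cells was not tested.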

How the data were processed

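Single-cell 3′ RNA counts of cardiac non-cardiomyocytes were analysed, from 6 libraries of 4 pooled mice each, with samples grouped by their titles. The deposited files are gene by barcode matrices of UMI counts, made with Cell Ranger 6.0.0 on mm10 per the submitters' processing notes; other steps are not given in the sources used here. The authors deposited between 20995280 and 45649061 UMIs per library, and the barcodes held at least 500 UMIs.

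Barcodes with at least 200 genes and at most 20% mitochondrial UMIs were kept. Scrublet's own threshold marked too few cells to be of use (0 to 50 per library), so the top-scoring share was dropped instead, set at 0.8% for each 1000 barcodes. Cells were clustered with scanpy 1.11.5 (scipy 1.17.1, python 3.11.15) on 2000 variable genes without the 10 members (30 components, 20 neighbours, Leiden resolution 1), and clusters were named from fixed marker lists. Counts were summed per class and library where a class had at least 50 cells, and pairs of libraries were compared as ratios of CPM with exact conditional 95% intervals, which cover counting error only; a count of 0 was given the limit of 3 counts. Reads of overlapping or antisense genes were not examined separately. No test across animals was possible. The ratio and interval computation was tested on simulated data.

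The members and gene lists were chosen with earlier results of these data known. Named are the 10 members, the 3 genes of each list with the largest ratio for WT 72 h against 24 h and for KO against WT at 72 h, and the 3 genes most like each member, some of which are not reported here. Promoter windows and gene positions are from RefSeq (GRCm38.p6) and GENCODE M21. Of 14 alternative settings, 3 were chosen after the data were seen: taking out the monocyte/macrophage profile, keeping fibroblasts under 1% of its markers, and leaving out the highest barcode.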

Additional observations from a re-analysis of the deposited data

Results flagged for a closer look

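Thbs1 in smooth muscle differed between genotypes in opposite directions in the sham and the ligated hearts. The log2 ratio of KO to WT was 1.62 in sham hearts and -2.24 at 24 h after ligation. In the KO sham library 1 cell held 95 of the 151 UMIs, and without the highest cells the sham ratio was 1.92. The difference between these ratios was not tested.

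Fn1 in neutrophils was lower at 72 h than at 24 h in WT, with a log2 ratio of -1.46, and higher in KO, with 1.55. The levels were low, at 14.8 CPM in WT 24 h, 26.9 in KO 24 h, 5.39 in WT 72 h from 11 UMIs, and 78.55 in KO 72 h, in the library whose fibroblasts also held raised monocyte/macrophage markers. The difference between these ratios was not tested.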

How the results depend on the processing

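No paired analysis was possible because each group is 1 library and no numbers link libraries across groups. Counts of members called in fibroblasts stayed within 1.5 times except as follows. The share of all genes called was not computed for the settings named here. With the mean over cells, 5 were higher at 24 h against sham in WT, 2 lower at 72 h against 24 h in KO, and 1 higher and 2 lower in KO than WT at 72 h. Relative to the median gene, 0 were lower at 24 h against sham in KO and 0 lower at 72 h against 24 h in WT; that gene lay at log2 -0.21, -0.27, -0.18 and -0.11 for KO 24 h against sham, WT and KO 72 h against 24 h, and KO against WT at 24 h. With the neutrophil level subtracted, 2 were lower at 24 h against sham in KO, 0 lower at 72 h against 24 h in WT, and 1 lower in KO than WT at 24 h. With mitochondrial UMIs of at most 10%, 0 were lower at 72 h against 24 h in WT and 1 lower in KO than WT at 24 h. With doublets kept, 0 were higher in KO than WT in sham. With the monocyte/macrophage profile taken out, 1 was lower in KO than WT at 24 h and 1 at 72 h. Among fibroblasts under 1% marker UMIs, 0 were lower at 72 h against 24 h in WT and 2 lower in KO than WT at 72 h. Directions reversed with the neutrophil level subtracted, which by construction sets Thbs1 to its floor where neutrophils hold more: log2 ratios for Thbs1 became -0.10 in T/NK cells and -0.45 in cardiomyocytes (KO, 72 h against 24 h), -1.11 in dendritic cells (KO, 24 h against sham), 3.885 in fibroblasts (WT, 72 h against 24 h), -0.20 in fibroblasts (sham, KO against WT), 0.25 in monocytes and macrophages (KO, 72 h against 24 h), and 0.43 and -0.34 in smooth muscle (KO against WT at 24 h and in sham), and for Sparc -0.094 in dendritic cells (KO, 72 h against 24 h) and 0.34 in monocytes and macrophages (WT, 24 h against sham). With the mean over cells endothelial Ccn2 (KO against WT, 72 h) reversed to 0.41, and with the members allowed in the clustering neutrophil Sparc (KO against WT, 24 h) to 0.56. The cause of these changes was not tested otherwise. Of the ratios of single genes, 130 of 233 moved little with the mean over cells. Depth limits Ccn5 in the KO 72 h fibroblasts, where 75 UMIs were counted, and every class of under 50 cells.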

Other observations

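Over 56 pairs of class and library (13 classes, 5113 genes at 100 CPM or more in 1 of them), the genes whose log2(CPM + 10) was most like a member's were named by Pearson r, as a description of points that share libraries. They were Loxl2 (0.958), Meg3 (0.941) and Col5a3 (0.940) for Postn, Ltbp2 (0.907), Col8a1 (0.894) and Fkbp11 (0.890) for Tnc, and Col12a1 (0.925), Ltbp2 (0.916) and Ptn (0.872) for Cthrc1. For Thbs2 they were Mrc2 (0.978), Col6a3 (0.971) and Col5a1 (0.966), and for Sparc Igfbp7 (0.974), Serpinh1 (0.963) and Npdc1 (0.962). Ccn1 was most like Eln (0.905), Synpo (0.898) and Pls3 (0.898), Ccn2 most like Il1r1 (0.929) and Rhox5 (0.927), and Ccn5 most like Pcolce2 (0.943), Dclk1 (0.938) and Mmp3 (0.935). Thbs1 had lower values, with Pkm (0.797), Smim3 (0.760) and Cd44 (0.759), and so had Fn1, with Tmem106a (0.865) and Anxa4 (0.847).

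Platelets, where a library held at least 50, carried Thbs1 at 2138 CPM in WT sham, 1418 in KO sham, 1160 in WT 24 h and 3011 in WT 72 h. Dendritic cells carried Fn1 at 693 CPM in WT sham, 644 in KO sham, 644 in WT 24 h, 760 in KO 24 h, 441 in WT 72 h and 461 in KO 72 h.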
